A study of Homo sapiens with 4 samples.

Results

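Collagens are the structural proteins of the extracellular matrix, and each is built from chains encoded by genes whose symbols have the form COL, a type number, A and a chain number. The family was taken as every protein-coding gene whose symbol has that form, after Ensembl identifiers of the deposited table were matched to symbols. This gave 44 genes of 60617 in the table, of which 11 encode fibrillar chains, 6 type IV chains, 5 type VI chains, 10 FACIT chains (fibril-associated collagens with interrupted triple helices), 4 transmembrane chains and 8 chains of other classes. The genes were measured by RNA-seq in A673, an established human Ewing sarcoma cell line that carries a fusion of EWSR1 to FLI1. Cells were given CBL0137 at 1 µM or the solvent DMSO for 24 h, with 2 libraries per condition, and both conditions shared the same medium with serum. CBL0137 is a curaxin, a small molecule that binds DNA and traps on chromatin the histone chaperone FACT, formed by SSRP1 and SUPT16H.

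Collagen chains wind around each other in threes into a helix in which every turn needs glycine. A heterotrimer is built from chains of different genes. Fibrillar collagens form the load-bearing fibres, FACITs decorate those fibres, type IV collagen forms the sheet of basement membranes, and type VI collagen forms beaded filaments around cells. Ewing sarcoma cells have mesenchymal traits, and collagen chains are among the matrix genes that such cells can transcribe. RNA was measured in bulk, so fewer cells with a transcript and less transcript per cell cannot be told apart.

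The promoters below are shown because the chains of type VI collagen moved together and because COL12A1 rose most in counts among the FACITs. COL4A1 and COL4A2 are shown because they are read in opposite directions from a common stretch and did not pass the fold limit. Sequences are from RefSeq's promoter table for GRCh38.p14 and were placed on GRCh37 by an exact match. Each of the first 3 gives the 250 bases before the transcript start, 5′ to 3′ on the gene's strand. COL6A3 lies at chr2:238322808-238323057 (minus strand), COL6A2 at chr21:47517776-47518025 (plus strand) and COL12A1 at chr6:75915770-75916019 (minus strand). The last gives the 126 bases between the starts of COL4A1 and COL4A2, chr13:110959505-110959630, on the plus strand. Capitals mark the GC box GGGCGG, the CCAAT box CCAAT and the TATA box TATAAA on either strand.
COL6A3: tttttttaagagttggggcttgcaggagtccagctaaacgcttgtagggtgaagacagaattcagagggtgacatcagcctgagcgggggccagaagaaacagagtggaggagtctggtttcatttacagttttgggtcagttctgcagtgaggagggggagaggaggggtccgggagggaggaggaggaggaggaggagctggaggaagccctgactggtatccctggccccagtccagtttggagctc
COL6A2: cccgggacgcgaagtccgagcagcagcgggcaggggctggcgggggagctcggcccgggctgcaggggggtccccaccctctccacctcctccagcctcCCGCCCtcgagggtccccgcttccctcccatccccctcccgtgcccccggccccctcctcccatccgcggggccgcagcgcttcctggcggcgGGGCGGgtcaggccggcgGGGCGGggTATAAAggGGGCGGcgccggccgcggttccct
COL12A1: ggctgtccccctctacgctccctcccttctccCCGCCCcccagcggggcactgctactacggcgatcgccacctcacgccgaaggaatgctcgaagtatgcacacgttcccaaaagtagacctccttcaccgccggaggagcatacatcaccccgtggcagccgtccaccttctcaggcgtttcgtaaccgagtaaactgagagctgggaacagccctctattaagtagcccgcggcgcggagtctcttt
COL4A1-COL4A2: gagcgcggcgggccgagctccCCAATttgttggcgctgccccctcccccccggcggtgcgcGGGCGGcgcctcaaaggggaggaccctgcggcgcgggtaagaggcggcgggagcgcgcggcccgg

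The table held promoters for 32 of the 44 genes, at 44 starts. COL1A1, COL1A2, COL2A1, COL3A1, COL5A2, COL6A1, COL6A5, COL8A1, COL9A3, COL14A1, COL20A1 and COL22A1 had no entry. GGGCGG was found in 24 of the 44 windows of 250 bases, against 42.6% of all 35116 promoters of that length. Among starts of genes that rose in CBL0137 it was found in 9 of 10, and COL6A3 was the start without it. Among starts of tested genes that did not pass the limits it was found in 8 of 22, and among those of genes with too few reads in 7 of 12. The octamer GGAAGGAA, the repeat unit pair of the microsatellites that EWS-FLI1 binds, was in 0 of the 44 windows and in 3.06% of all promoters. These are counts of starts and not of genes. Some genes have several starts: COL5A1, which rose, with a pair of overlapping windows, and COL9A1, COL10A1, COL11A2, COL18A1 and COL21A1, which were not called. COL24A1 and COL4A6, with too few reads, do as well. COL11A2 and COL21A1 have GGGCGG at some of their starts only, so shares by start and by gene differ. The windows of COL4A1 and COL4A2 also overlap. COL1A1, COL2A1, COL6A1 and COL6A5, which rose, are missing from the counts, and a match describes letters only.

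Gene counts summed to between 20483714 and 23373554 reads per library. Replicates of a condition held distinct counts: chi-square over its degrees of freedom was 2.07 for the DMSO pair, 2.57 for the CBL0137 pair and 20.8 for replicate 1 across conditions. The labels do not say that replicates were separate cultures, so p-values measure the library-to-library spread alone, which could be technical. All 8 markers of Ewing sarcoma passed the count filter and 0 were called, with CD99 between 1562 and 1592 CPM and NKX2-2 between 47.4 and 58.5 CPM (counts scaled to library size after TMM factors). Over all genes tested 6.88% were called higher and 2.73% lower, so 0 of 8 lies near that background. At an edgeR adjusted p under 0.05 alone, NR0B1 (log2 fold change 0.29) and NKX2-2 (0.20) were higher, and PAX7 (-0.29) and EWSR1 (-0.19) were lower. Of 6 epithelial markers 0 passed the filter, and PTPRC, CD3E and HBB of the blood markers had counts of at most 1 per library. CD14, the remaining blood marker, had counts of 6 and 6 in DMSO, and 10 and 17 in CBL0137, and was not called (1.19 ± 0.57, edgeR adjusted p = 0.107). SSRP1 measured 561 and 549 CPM in DMSO and 447 and 449 in CBL0137, and SUPT16H measured 409 and 403 against 396 and 395.

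Of the 44 collagen genes, 31 had enough reads to be tested, and 13 of these rose in CBL0137 while 0 fell. A gene was called, here written as rose or fell, when its edgeR adjusted p (Benjamini-Hochberg over all genes tested) was under 0.05 and its fold change was above 1.5. Over all 17309 genes tested, 6.88% were called higher and 2.73% lower. The median log2 fold change was 0.47 over the 31 collagen genes and 0.003 over all genes tested. At an adjusted p under 0.05 with no fold limit, 22 collagen genes were higher and 3 lower, against 17.5% of all tested genes higher and 19.0% lower. DESeq2, the tool the series names, called 12 of the 27 collagen genes to which it gave an adjusted p, all higher, against 4.0% of all genes called higher by it. The 4 other tested genes, COL4A4, COL9A1, COL10A1 and COL26A1, received no adjusted p from it. The 13 genes that rose had no overlap between conditions, in CPM or in the deposited FPKM (fragments per kilobase of transcript, scaled to sequencing depth). These genes were picked by their call on the same counts, so the lack of overlap adds no separate evidence. Some genes that were not called, such as COL1A2, COL4A2 and COL5A2, had no overlap either. The share without overlap over all genes was not computed.

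**Figure D1:**
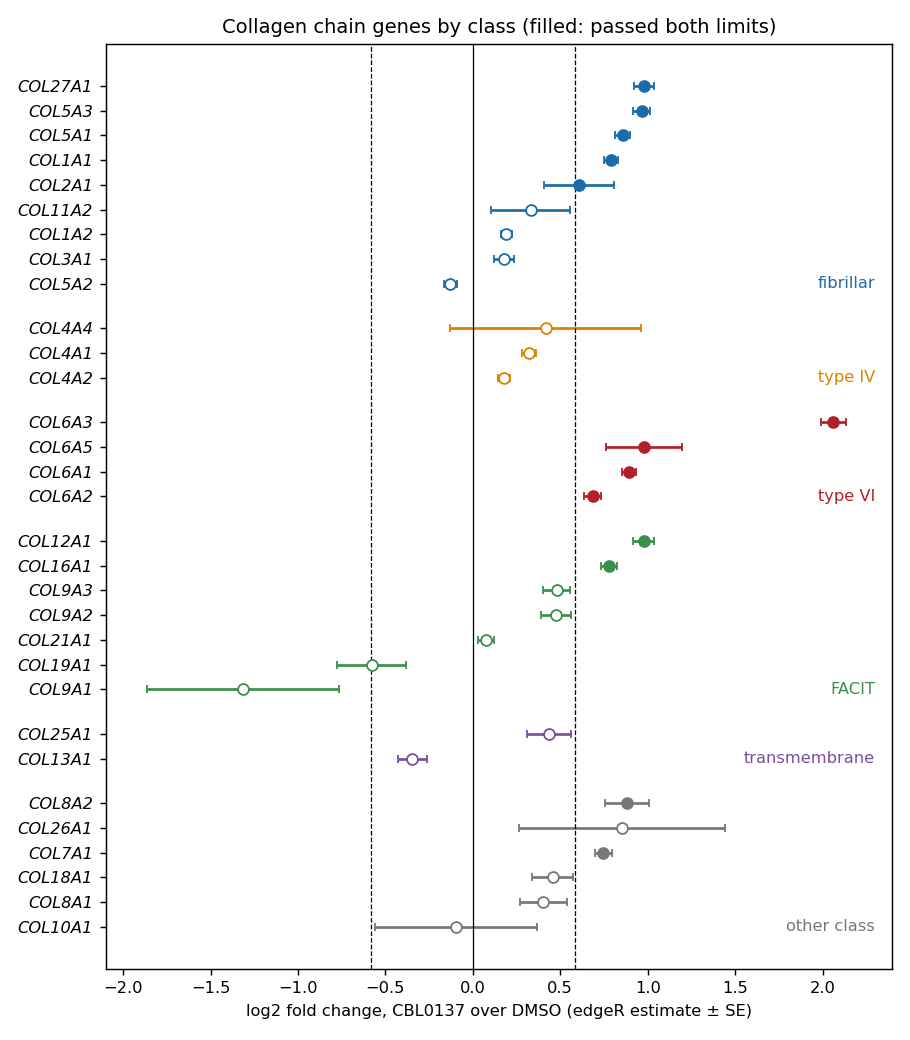
Log2 fold change of CBL0137 over DMSO (x axis, edgeR estimate with its SE) for the 31 collagen chain genes with enough reads, grouped by class, with 2 libraries per condition. Filled points passed both limits, dashed lines mark a fold change of 1.5 in either direction, and COL6A3 stands furthest to the right at 2.06.

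Collagen transcripts as a whole took a larger part of the library in CBL0137. The 44 genes held 0.292% of gene counts in DMSO replicate 1, 0.294% in DMSO replicate 2, 0.406% in CBL0137 replicate 1 and 0.419% in CBL0137 replicate 2. The means were 0.293% ± 0.00126 and 0.413% ± 0.00924 (SD, n = 2 each), and both CBL0137 libraries lay above both DMSO libraries. An exact two-sided permutation test gave p = 0.333, the smallest that 2 against 2 libraries allow. Summed deposited FPKM were 353 and 347 in DMSO, and 478 and 517 in CBL0137. By class, summed CPM went from 1590 to 1592 in DMSO to 2037 to 2124 in CBL0137 for fibrillar chains, from 258 to 262 to 476 to 514 for type VI chains, and from 311 to 312 to 445 to 460 for FACITs. Transmembrane chains measured 37.3 to 41.6 CPM in DMSO and 36.5 to 36.95 in CBL0137; as a share of gene counts their conditions overlapped, and in summed FPKM they ran the other way, from 1.22 to 1.62 in DMSO and from 2.01 to 2.29 in CBL0137.

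Type VI was the class in which every tested gene rose. Its 4 tested genes, COL6A1, COL6A2, COL6A3 and COL6A5, all passed the limits, beside 6.88% of all tested genes called higher. Their median log2 fold change was 0.94. COL6A6, a further long chain, had counts of 2 and 4 in DMSO and 6 in each CBL0137 library and was not tested.

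COL6A3 encodes the longest chain of the classical type VI trimer (chromosome 2, 238232646 to 238322971 in GRCh37). It measured 17.0 and 18.8 CPM in DMSO (replicate 1, then 2, here and below), and 72.7 and 76.8 in CBL0137. The lowest CBL0137 library was far above the highest DMSO library. The level was 4.18-fold higher, 2.06 ± 0.07 (SE) as a log2 fold change (edgeR adjusted p = 4.9e-17). Among the 31 tested collagen genes this was the largest change, and it was the only called gene above a fold of 2; COL9A1, described with the FACITs, was more than 2-fold lower but did not pass the test. Deposited FPKM were lower than counts alone would give and less even between DMSO libraries, at 1.13 and 0.614 in DMSO and 2.82 and 3.11 in CBL0137. On the log2(FPKM + 1) scale the difference was 1.09 (limma adjusted p = 0.0272), and with a pseudocount of 0.1 it was 1.71.

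COL6A1 and COL6A2, the shorter chains of the same trimer, lie next to each other on chromosome 21 (47401684 to 47424964, and 47518026 to 47552762). COL6A1 measured 125 and 120 CPM in DMSO, and 221 and 234 in CBL0137. COL6A2 measured 118 and 116 CPM in DMSO, and 178 and 198 in CBL0137. Both genes were higher in each CBL0137 library than in either DMSO library, and the CBL0137 libraries of COL6A2 were the further apart. Log2 fold changes were 0.89 ± 0.04 for COL6A1 and 0.68 ± 0.05 for COL6A2, with edgeR adjusted p of 2.5e-14 and 1.8e-11. COL6A2 was not called from FPKM (0.61, limma adjusted p = 0.0796). The FPKM ratio of COL6A2 to COL6A1 was 1.003 and 1.06 in DMSO, and 0.718 and 0.909 in CBL0137. The count ratio of COL6A3 to COL6A1 was 0.137 and 0.156 in DMSO, and 0.328 and 0.329 in CBL0137. In FPKM this ratio was 0.0546 and 0.0305 in DMSO, and 0.0734 and 0.0726 in CBL0137. The long chain gained on COL6A1 by either measure, but by less in FPKM against DMSO replicate 1. COL6A5 encodes an alternative chain that can take the place of COL6A3, and it had only 2.63 and 2.0 CPM in DMSO, and 4.05 and 5.05 in CBL0137. Its log2 fold change was 0.98 ± 0.22 (edgeR adjusted p = 9.5e-04), the widest SE among the type VI genes.

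Of 9 tested fibrillar genes, COL1A1, COL2A1, COL5A1, COL5A3 and COL27A1 rose, 0 fell and 4 were not called, namely COL1A2, COL3A1, COL5A2 and COL11A2. COL11A1 and COL24A1 had counts of 1 to 8 in each library and were not tested. The median log2 fold change of the class was 0.61, and over all tested genes 6.88% were called higher and 2.73% lower.

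Type I collagen, the main fibre of bone and skin, is assembled from COL1A1 and COL1A2, and COL1A1 can also form a trimer alone. COL1A1 (chromosome 17, 48261462 to 48278993) measured 221 and 208 CPM in DMSO, and 363 and 379 in CBL0137. COL1A2 (chromosome 7, 94024207 to 94060539) measured 756 and 750 CPM in DMSO, and 843 and 876 in CBL0137. COL1A1 rose by 0.79 ± 0.04 on the log2 scale (edgeR adjusted p = 4.0e-14), while the 0.19 ± 0.03 of COL1A2 (edgeR adjusted p = 2.7e-05) was below the fold limit although its libraries did not overlap either. COL1A2 had the highest deposited FPKM of the family, 92.4 to 93.9 in DMSO and 109 to 114 in CBL0137. The ratio of COL1A1 to COL1A2 in FPKM was 0.267 and 0.251 in DMSO, and 0.387 and 0.393 in CBL0137.

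Type V collagen sets the width of type I fibres and is made of COL5A1 and COL5A2, with COL5A3 as an alternative chain. COL5A1 (chromosome 9, 137533649 to 137736689) measured 167 and 177 CPM in DMSO, and 302 and 321 in CBL0137. COL5A3 (chromosome 19, 10070237 to 10121180) measured 68.9 and 67.3 CPM in DMSO, and 131 and 134 in CBL0137. COL5A2 (chromosome 2, 189896624 to 190090038) went the other way, with 282 and 290 CPM in DMSO and 256 and 268 in CBL0137. COL5A1 rose by 0.86 ± 0.04 and COL5A3 by 0.96 ± 0.05 on the log2 scale (edgeR adjusted p of 2.9e-14 and 4.0e-14). COL5A2 was at -0.13 ± 0.04 (edgeR adjusted p = 0.00883), inside the fold limit, and its deposited FPKM were 27.1 and 27.5 in DMSO, and 25.5 and 27.0 in CBL0137. The FPKM ratio of COL5A1 to COL5A2 was 0.592 and 0.515 in DMSO, and 1.17 and 1.18 in CBL0137, so the order of the chains was opposite in the conditions.

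**Figure D2:**
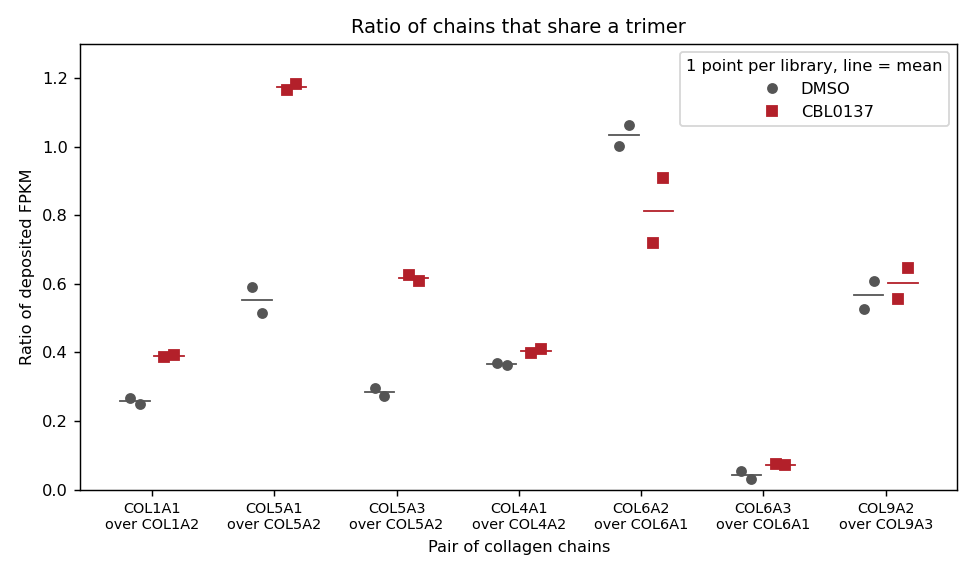
Ratio of deposited FPKM (y axis, per-length levels) between pairs of collagen chains that can share a trimer, with 1 point per library and the mean of each condition as a line. COL5A1 over COL5A2 lies below 1 in both DMSO libraries (0.592 and 0.515) and above 1 in both CBL0137 libraries, while COL9A2 over COL9A3 overlaps between conditions.

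COL27A1, a fibrillar chain of cartilage with a shortened helix (chromosome 9, 116917817 to 117074791), measured 38.8 and 36.1 CPM in DMSO, and 73.4 and 74.2 in CBL0137. Its log2 fold change of 0.98 ± 0.06 (edgeR adjusted p = 1.7e-12) was the largest in the class. COL2A1, the main fibrillar chain of cartilage, was weakly present at 2.98 and 2.75 CPM in DMSO, and 4.43 and 4.32 in CBL0137. Its log2 fold change of 0.61 ± 0.20 (edgeR adjusted p = 0.0187) was close to the fold limit, and it lost its call under DESeq2 (adjusted p = 0.19), without DMSO replicate 2 (0.55) and without CBL0137 replicate 1 (edgeR adjusted p = 0.0568). COL3A1, which accompanies type I collagen in elastic tissues, had deposited FPKM of 6.88 and 6.93 in DMSO, and 7.78 and 8.30 in CBL0137, and its log2 fold change in counts, 0.18 ± 0.06, was inside the fold limit.

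Among FACITs, COL12A1 and COL16A1 rose, 0 fell and 5 of 7 tested genes were not called. The shares called over all tested genes were 6.88% higher and 2.73% lower. COL12A1, which coats type I fibres (chromosome 6, 75794042 to 75915983), measured 35.6 and 36.99 CPM in DMSO, and 71.5 and 71.3 in CBL0137. COL16A1 (chromosome 1, 32117864 to 32169920), found at fibre surfaces in cartilage and skin, measured 123 and 116 CPM in DMSO, and 199 and 211 in CBL0137. Their log2 fold changes were 0.98 ± 0.06 and 0.78 ± 0.04 (edgeR adjusted p of 1.6e-12 and 4.6e-13), and neither overlapped between conditions. On the log2(FPKM + 1) scale the order was opposite, with 0.81 for COL12A1 and 1.06 for COL16A1.

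Type IX chains, which cover cartilage fibres, were unequal. COL9A2 measured 21.1 and 19.5 CPM in DMSO, and 27.0 and 29.4 in CBL0137, and COL9A3 measured 22.3 and 21.9 against 32.0 and 29.8. Both had log2 fold changes under the limit, 0.47 ± 0.08 and 0.48 ± 0.08, and edgeR adjusted p of 7.3e-05 and 2.9e-05. COL9A1, the chain that completes their trimer, had counts of only 14 and 17 in DMSO, and 5 and 7 in CBL0137, with a log2 fold change of -1.31 ± 0.55 that did not pass (edgeR adjusted p = 0.064). COL21A1, a FACIT of vessel walls, was the most abundant of the class in DMSO FPKM, at 16.5 and 17.7, and its log2 fold change was 0.07 ± 0.05. COL19A1 measured 4.20 and 4.93 CPM in DMSO, and 3.0 and 3.11 in CBL0137, which gave -0.58 ± 0.20 on the log2 scale (edgeR adjusted p = 0.0236) just inside the fold limit. It passed without DMSO replicate 1 (-0.69), and also when every gene was kept with no filter on counts (-0.59). Deposited FPKM of COL19A1 had the opposite order, 0.295 and 0.265 in DMSO against 0.627 and 0.406 in CBL0137.

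Basement membrane collagen was high and did not pass the limits. Only 3 type IV genes were tested, so 0 called lies near the 6.88% higher and 2.73% lower over all genes tested. COL4A2 (chromosome 13, 110958159 to 111165556) had the second highest FPKM of the family, 55.1 and 56.3 in DMSO, and 64.7 and 66.3 in CBL0137. COL4A1, its partner (110801310 to 110959504), had 20.3 and 20.4 FPKM in DMSO, and 25.9 and 27.2 in CBL0137. In counts, their log2 fold changes were 0.18 ± 0.03 for COL4A2 and 0.32 ± 0.04 for COL4A1, with edgeR adjusted p of 2.1e-04 and 3.6e-07, and neither reached the fold limit. Their FPKM ratio, COL4A1 over COL4A2, was 0.368 and 0.363 in DMSO, and 0.400 and 0.411 in CBL0137. The tested remainder of the class, COL4A4 of the kidney and lung network, had counts of 15 and 5 in DMSO, and 14 and 12 in CBL0137. COL4A3, COL4A5 and COL4A6 had counts of at most 10 per library and were not tested.

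The transmembrane chains, which are anchored in the cell surface, were not called. Only 2 were tested, so 0 called lies near the 6.88% higher and 2.73% lower over all genes tested. COL13A1, found at the neuromuscular junction (chromosome 10, 71561636 to 71724031), measured 30.02 and 28.5 CPM in DMSO, and 24.1 and 22.0 in CBL0137. Its log2 fold change was -0.35 ± 0.08 (edgeR adjusted p = 0.00141), inside the fold limit. Its deposited FPKM ran in the opposite direction, 1.04 and 1.49 in DMSO, and 1.78 and 1.97 in CBL0137, so the direction for COL13A1 depends on which deposited measure is read. COL25A1, a chain of muscle innervation and of amyloid plaques, measured 11.3 and 8.75 CPM in DMSO, and 12.7 and 14.4 in CBL0137, with a log2 fold change of 0.43 ± 0.13 that passed the limits without DMSO replicate 1 (0.63). COL17A1 and COL23A1 had counts of at most 5 per library.

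Of 6 tested chains in other classes, COL7A1 and COL8A2 rose, 0 fell and 4 were not called, beside 6.88% higher over all genes. COL7A1 forms the anchoring fibrils that hold epidermis to dermis (chromosome 3, 48601506 to 48632762), and it measured 88.1 and 84.2 CPM in DMSO, and 140 and 149 in CBL0137. COL8A2, a short chain of the corneal endothelial membrane, measured 8.67 and 7.02 CPM in DMSO, and 13.4 and 15.4 in CBL0137. Their log2 fold changes were 0.75 ± 0.05 and 0.88 ± 0.13, with edgeR adjusted p of 3.5e-12 and 4.6e-06. COL8A2 was not called from FPKM, at 0.57 on the log2(FPKM + 1) scale. COL8A1 (0.40 ± 0.13) and COL18A1 (0.46 ± 0.12), the source of endostatin, were inside the fold limit. COL18A1 shares 18.5% of its annotated exon bases with SLC19A1 on the opposite strand, and no source used here says whether reads were counted by strand. COL10A1 (-0.10 ± 0.46) and COL26A1 (0.85 ± 0.59) had counts of 4 to 23 per library and wide errors.

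**Figure D3:**
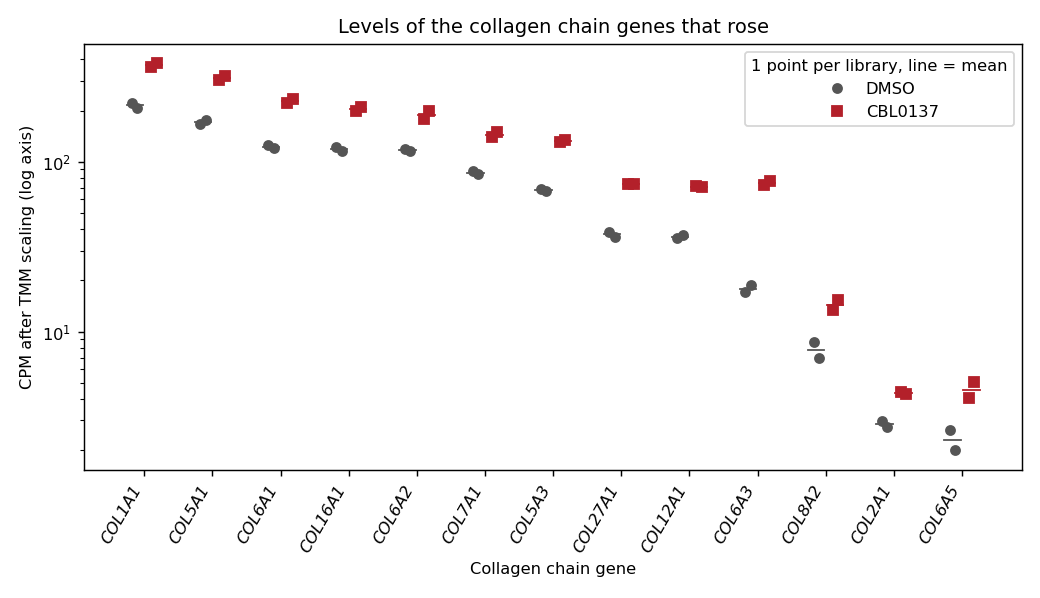
CPM after TMM scaling (y axis, log scale) of the 13 collagen chain genes that rose, with 1 point per library and the mean of each condition as a line. The genes shown were picked by their call on the same counts. In each gene both CBL0137 libraries lie above both DMSO libraries, and the levels run from 379 CPM (COL1A1, CBL0137 replicate 2) down to 2.0 CPM (COL6A5, DMSO replicate 2).

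The 13 untested genes had counts of 0 to 14 per library. COL14A1, COL20A1 and COL4A6 had 0 counts in both DMSO libraries, which allows up to 3 counts in each, and at most 4 in a CBL0137 library. COL15A1, of vessel basement membranes, had counts of 14 and 5 in DMSO, and 2 and 3 in CBL0137, and COL28A1 had 5 and 7 against 2 and 0. No fold is given for these genes.

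Per unit length, in deposited FPKM, the order of the most abundant chains in DMSO was COL1A2 (mean 93.2), COL4A2 (55.7), COL5A2 (27.3), COL1A1 (24.1), COL6A2 (21.1), COL6A1 (20.5) and COL4A1 (20.3). The libraries of COL6A1 and COL4A1 overlapped, so their order is within the spread. In CBL0137 COL1A2 (111) and COL4A2 (65.5) were again the highest, followed by COL1A1 (43.4), COL6A1 (40.6), COL6A2 (33.3), COL5A1 (30.8), COL16A1 (27.2), COL4A1 (26.6) and COL5A2 (26.3). The CBL0137 libraries of COL5A2, COL4A1 and COL16A1 overlapped. Those of COL1A1 overlapped with COL6A1, and those of COL6A2 with COL6A1, COL5A1 and COL16A1. The order of genes that overlap is within the spread. By mean FPKM, COL5A2 stood behind COL1A2 and COL4A2 in DMSO, and in CBL0137 also below both libraries of COL1A1, COL6A1, COL6A2 and COL5A1. Of the 22 collagen genes that passed the FPKM minimum (1 or more in 2 libraries), 21 had the same sign of change in FPKM as in counts, and COL13A1 did not.

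GC content of the transcript moved with the fold change. Across the 31 tested collagen genes Spearman's rho between log2 fold change and GC content was 0.33, and across 17196 tested genes with a transcript sequence it was 0.15, given as descriptions over genes that share the same libraries. Of 16 collagen genes with at least 60% GC, 10 rose, and of the 15 below it 3 did, namely COL6A3, COL6A5 and COL12A1. Over all tested genes 12.1% of those with at least 60% GC were called higher and 5.94% of the others. With the GC trend of each library removed, an alternative chosen after the data were seen, 12 of the 13 genes remained called and COL2A1 (0.53) was inside the fold limit. COL6A3 then measured 2.03, COL12A1 0.99, COL1A1 0.72 and COL6A2 0.59, the last almost at the limit.

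**Figure D4:**
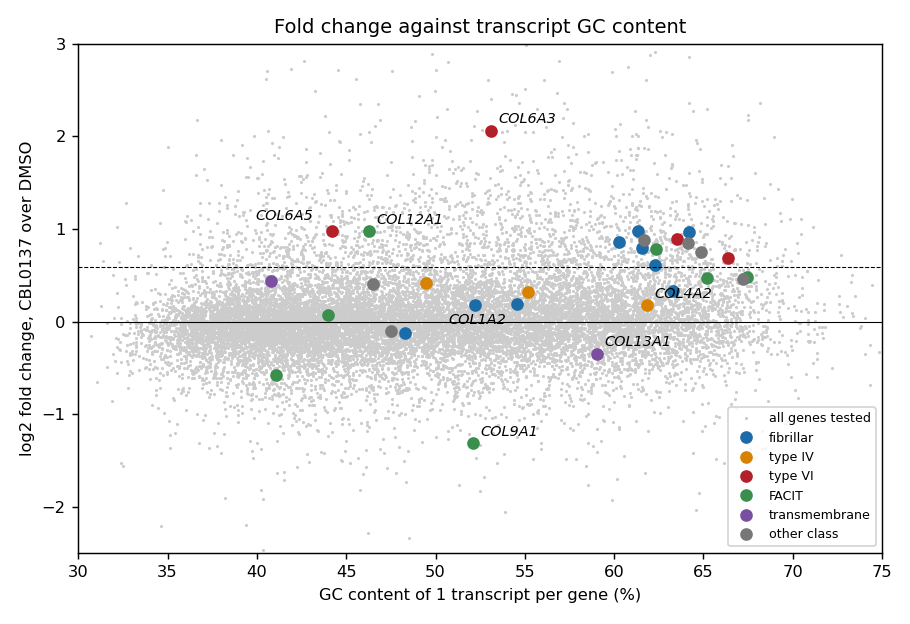
Log2 fold change of CBL0137 over DMSO (y axis) against GC content of 1 transcript per gene (x axis, percent), with all tested genes in grey and collagen chain genes coloured by class. COL6A3, COL6A5 and COL12A1 rose at under 60% GC, and the remaining 10 genes above the dashed fold limit that passed lie at 60% or more; 31 grey genes lie beyond the axes and are not drawn.

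Collagen chains are modified and folded by a dedicated set of enzymes and chaperones before export. Of 25 collagen biosynthesis genes, all tested, CREB3L1 rose, 0 fell and 24 were not called, beside 6.88% higher and 2.73% lower over all genes tested. The median log2 fold change was -0.05, and the count called was near that background. CREB3L1, a transcription factor that activates collagen genes in bone, measured 7.44 and 8.57 CPM in DMSO, and 14.1 and 13.1 in CBL0137 (0.76 ± 0.12, edgeR adjusted p = 2.0e-05). CRTAP, which acts in prolyl 3-hydroxylation of collagen in the endoplasmic reticulum, measured 201 and 209 CPM in DMSO, and 142 and 136 in CBL0137. Its log2 fold change was -0.56 ± 0.04 (edgeR adjusted p = 5.9e-11), inside the fold limit, and it passed the limit without DMSO replicate 1 or without CBL0137 replicate 1 (-0.59 each). P4HB, a subunit of prolyl 4-hydroxylase, was at -0.41 ± 0.04, SEC24D, a coat protein of collagen export, at -0.29 ± 0.05, and P3H1, the hydroxylase that partners CRTAP, at 0.31 ± 0.05. SERPINH1, the collagen chaperone HSP47, was at -0.19 ± 0.04.

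Of 14 tested genes of 18 in collagen processing and cross-linking, LOXL2 and TGM2 rose, 0 fell and 12 were not called, beside 6.88% of all tested genes called higher, with a median log2 fold change of 0.42. LOXL2, a lysyl oxidase that cross-links collagen, measured 39.6 and 39.5 CPM in DMSO, and 89.0 and 93.6 in CBL0137 (1.21 ± 0.06, edgeR adjusted p = 1.8e-14). TGM2, a transglutaminase, measured 5.51 and 6.97 CPM in DMSO, and 8.24 and 11.6 in CBL0137 (0.67 ± 0.16), and it lost its call without DMSO replicate 1 (0.51) or CBL0137 replicate 2 (0.40). The proteases FURIN (0.51 ± 0.04) and BMP1 (0.49 ± 0.07), which trim procollagen or its proteases, were inside the fold limit, as was LOXL1 (0.33 ± 0.05).

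Of 13 tested collagen receptors of 15, ANTXR1, ANTXR2, CSPG4, ITGA2 and CD36 rose, 0 fell and 8 were not called, beside the same 6.88% over all genes, with a median of 0.42. ANTXR1, an anthrax toxin receptor that binds collagen VI and collagen I, measured 371 and 365 CPM in DMSO, and 611 and 626 in CBL0137 (0.75 ± 0.03, edgeR adjusted p = 9.0e-15). CSPG4, the proteoglycan NG2 that binds collagen VI, measured 9.50 and 9.90 CPM in DMSO, and 15.7 and 17.7 in CBL0137 (0.79 ± 0.11). ITGA2, a subunit of a collagen-binding integrin, measured 3.59 and 4.04 CPM in DMSO, and 7.76 and 6.39 in CBL0137 (0.89 ± 0.17). ANTXR2 (0.59 ± 0.11) lost its call without DMSO replicate 1 (0.47) or CBL0137 replicate 1 (0.58), and CD36 (1.64 ± 0.49, under 1.2 CPM in every library) without DMSO replicate 2 or CBL0137 replicate 1, with edgeR adjusted p of 0.154 and 0.108. The collagen receptor kinase DDR1 was at 0.41 ± 0.05 and DDR2 at 0.02 ± 0.04. ITGA10, a subunit of a collagen-binding integrin, went the other way at -1.04 ± 0.45 and did not pass (edgeR adjusted p = 0.0731). Its counts were 17 and 34 in DMSO, and 10 and 14 in CBL0137. It was called lower without DMSO replicate 1.

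Of 16 tested collagen-binding matrix genes of 23, TGFBI, NID1, MATN3, DCN and COMP rose, 0 fell and 11 were not called, again beside 6.88% over all genes, with a median of 0.29. TGFBI, which binds type I, IV and VI collagen, measured 178 and 182 CPM in DMSO, and 276 and 280 in CBL0137 (0.62 ± 0.04, edgeR adjusted p = 1.7e-12). NID1, a linker of laminin and type IV collagen, measured 13.6 and 13.3 CPM in DMSO, and 20.5 and 25.1 in CBL0137 (0.77 ± 0.10). MATN3, a matrilin of cartilage, measured 1.97 and 2.58 CPM in DMSO, and 4.76 and 4.88 in CBL0137 (1.08 ± 0.21). COMP, a cartilage protein that binds type I, II and IX collagen, had counts of 8 and 2 in DMSO, and 34 and 38 in CBL0137 (2.86 ± 0.50), and its size rested on the DMSO libraries, at 4.11 without DMSO replicate 1 and 2.19 without DMSO replicate 2. DCN, a small proteoglycan of collagen fibres, lost its call under DESeq2 (adjusted p = 0.193), without DMSO replicate 2 (0.63) or without CBL0137 replicate 2 (0.55). FN1, the fibronectin gene, was far above every collagen in count at 7566 to 8260 CPM and had a log2 fold change of 0.03 ± 0.03. On the log2(FPKM + 1) scale, LOXL2, ANTXR1 and TGFBI were the called genes of these 4 lists, and CREB3L1 (0.57) and NID1 (0.57) were inside the fold limit.

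Of 8 markers of fibroblasts and stroma, 6 were tested, beside 6.88% of all tested genes called higher and 2.73% lower. THY1 (0.72 ± 0.04), PDGFRB (0.66 ± 0.05) and DCN rose, with the exceptions given above for DCN, and 0 fell. The summed level of the 8 markers was 321 to 343 CPM in DMSO and 518 to 540 in CBL0137, of which THY1 and PDGFRB made up the most. The other 3 tested markers were not called: ACTA2 was at 0.07 ± 0.10, FAP at 0.09 ± 0.23, and PDGFRA had counts of at most 13 per library. LUM and POSTN had too few reads to test. Of 3 endothelial markers found in the table, 2 were tested and 1 was called, beside the same shares over all genes. CDH5 rose from counts of 4 and 3 to 19 and 17, KDR was at 0.11 ± 0.17 and VWF had counts of at most 1. The summed level of these 3 was 5.82 to 5.95 CPM in DMSO and 6.24 to 7.73 in CBL0137. CDH5 lost its call without DMSO replicate 2 (edgeR adjusted p = 0.0523), received no adjusted p from DESeq2, and was below the filter of 1 CPM in 2 libraries and the FPKM minimum. The part of these markers in the rise of collagen genes was not tested.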

How the data were processed

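RNA-seq libraries of A673 cells, 2 given DMSO and 2 given CBL0137, were grouped by sample title. The authors deposited whole-number counts and FPKM per gene, per the file headers. The submitters' processing notes name Trim Galore, HISAT2, HTSeq 0.11.1 and DESeq2 1.26.0 with the builds hg19 and mm10, in no stated role; for the FPKM the tool, and for the counts the strand setting and annotation, are not given in the sources used here. Summary rows, 23.7% to 24.8% of reads, stayed out of library sizes and tests.

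Identifiers were named from GENCODE 44 lifted to GRCh37. Counts were tested with edgeR 4.0.16 (R 4.3.3): filterByExpr at a minimum count of 10, TMM factors and the quasi-likelihood test over all genes, checked on simulated counts. SE is the log2 fold change divided by the square root of F. Alternatives used RLE, upper-quartile or no factors, other filters and fold limits, DESeq2 1.42.0, limma-voom and limma-trend (limma 3.58.1) on log2(FPKM + 1) or log2(FPKM + 0.1), omission of each library, a replicate block and, added after seeing the data, GC offsets. Collagen genes and lists were chosen with earlier results of these data known. Named genes are the collagen genes, the called members of each list, the FACT subunits and the cell type markers. Some uncalled list members with the smallest adjusted p are also named, except in the collagen-binding matrix list. DDR2, ITGA10, SERPINH1 and FN1 were added after their values were seen. Of the list genes, 1 had no matching identifier. RefSeq promoters were searched on both strands.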

Additional observations from a re-analysis of the deposited data

How the results depend on the processing

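The 13 collagen genes that rose kept their call under limma-voom, RLE or upper-quartile factors, raw library sizes, no count filter and a filter of 1 CPM in 2 libraries. With the replicate number as a replicate block the same 13 were called, and 1128 genes higher and 448 lower in all; deviations of same-numbered libraries had a correlation of -0.0001 across genes, and the labels do not say that a number marks a shared culture. Leaving out each library in turn gave 12 to 14 collagen genes higher, 0 to 1 lower (COL19A1, without DMSO replicate 1) and 0 to 1 transmembrane genes called. COL10A1 ranged from -0.55 to 0.53 and COL4A4 from -0.16 to 1.38 in those fits, so their sign turned with the library left out; a lone library was assumed to vary like the other group. With no count filter 1 collagen gene, COL19A1, was lower. DESeq2 called 596 genes higher in all. On log2(FPKM + 1), 388 genes were higher and 189 lower, 2 type VI genes and 1 gene of other classes were called, 9 collagen genes in all, and COL13A1 turned to 0.35; with a pseudocount of 0.1 these were 489, 237, 2, 1, 9 and 0.55. COL2A1 and COL6A5 were below the FPKM minimum there. Without a fold limit 3022 genes were higher and 3292 lower, with 22 and 3 collagen genes, of which 8 fibrillar, 2 type IV, 5 FACIT, 2 transmembrane and 4 of other classes. At a fold above 2, 605 genes were higher and 131 lower, with 1 collagen gene, of type VI, and 0 fibrillar, 0 FACIT and 0 of other classes. Depth limits what can be said of genes under about 1 CPM.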

Other observations

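Several collagen genes lie within 500 kb of each other, and neighbours did not share one pattern. COL6A1 and COL6A2, 93.1 kb apart and read in the same direction, both rose, while COL18A1 on the same arm, 468 kb before COL6A1, was at 0.46 and inside the fold limit. COL3A1 and COL5A2, 19.2 kb apart on chromosome 2 with opposite strands, were at 0.18 and -0.13. COL19A1 and COL9A1, 3.57 kb apart on chromosome 6, were the tested genes with the lowest log2 fold changes, at -0.58 and -1.31, and neither was called. COL6A5 rose, and its neighbour COL6A6 was too low to test. These are values with no test of position.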
